A study of Mus musculus with 6 samples.

Results

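Enpp2 encodes autotaxin, a secreted enzyme that makes lysophosphatidic acid (LPA), and it is described here with 9 genes whose products share its family, sense LPA or break it down. These 10 genes were found by symbol among the 27179 genes of the count table, and each symbol matched 1 row. They are the ectonucleotide pyrophosphatases Enpp1, Enpp2, Enpp3, Enpp4 and Enpp5, the LPA receptors Lpar1 and Lpar4, and the phospholipid phosphatases Plpp1, Plpp2 and Plpp3. The set was chosen by the fold changes and counts of the same comparison, which were known when it was proposed. For that reason the differences of the 10 genes are given as descriptions with their errors and without tests.

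The RNA came from mouse embryonic stem cells (mESCs) grown on gelatin in serum and LIF, a cytokine that keeps such cells from differentiating. Both groups expressed Tfe3-ERT2, a form of murine Tfe3 that responds to tamoxifen. In 3 libraries the cells had been treated with 4-hydroxytamoxifen (4OHT, 1 µg/mL, 48 h), an ERT2 ligand used to bring such fusions into the nucleus, and in 3 they had received the ethanol vehicle (EtOH). The labels do not give the promoter of the fusion, whether the line is a single clone, or whether each library stands for a culture of its own. The p-values below therefore measure only the spread between these libraries, which may be technical. With no group that lacks the fusion, an action of 4OHT itself cannot be told apart from one through Tfe3-ERT2.

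LPA is a small lipid messenger. Autotaxin cuts choline from lysophosphatidylcholine outside the cell to produce it, cells read it through G protein-coupled receptors of 2 unrelated families (Lpar1, Lpar2 and Lpar3, and the purinergic-like Lpar4, Lpar5 and Lpar6), and phosphatases of the PLPP family remove its phosphate at the cell surface. Most other ENPP enzymes act on nucleotides instead, releasing pyrophosphate or phosphate from them outside the cell. In many tissues LPA is known as a signal for growth, survival and migration.

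Total counts per library ranged from 4092877 to 6427880, so that a gene counted 3 times in a library was at 0.467 to 0.733 CPM, the count scaled to library size. Over all genes, edgeR's quasi-likelihood test with Benjamini-Hochberg adjustment called 5189 of 12345 tested genes at 0.05 (42.0%), 21.4% higher and 20.6% lower in 4OHT. The mESC markers Pou5f1, Nanog, Sox2, Zfp42, Esrrb, Dppa5a, Tdgf1 and Utf1 summed to between 4662 and 4822 CPM in EtOH and between 4728 and 4771 in 4OHT. Within that sum 3 rose (Esrrb, from 566 to 882 CPM, Nanog and Zfp42), 3 fell (Tdgf1, Utf1 and Pou5f1, from 791 to 697 CPM) and 2 were not called by edgeR's test. The EtOH libraries held 1038 ± 35.1 CPM of Tfe3 and the 4OHT libraries 832 ± 4.34 (SD, n = 3 each), and its count can hold both endogenous transcripts and those of the fusion.

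Among the 10 genes, Enpp2, Enpp3 and Lpar4 were lower in 4OHT, and Enpp5, Plpp1 and Plpp3 were higher. Enpp4, Lpar1 and Plpp2 had overlapping groups, and Enpp1 was at the limit of detection. Of the 9 genes that passed the filter on low counts, 3 were past the genome-wide threshold in each direction, beside 42.0% of all tested genes in either direction. The values of the groups, in CPM scaled by TMM factors, did not overlap for the same 6 genes, while this held for 48.8% of tested genes. The choice of the set used this comparison, so nothing is read from these counts.

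**Figure D1:**
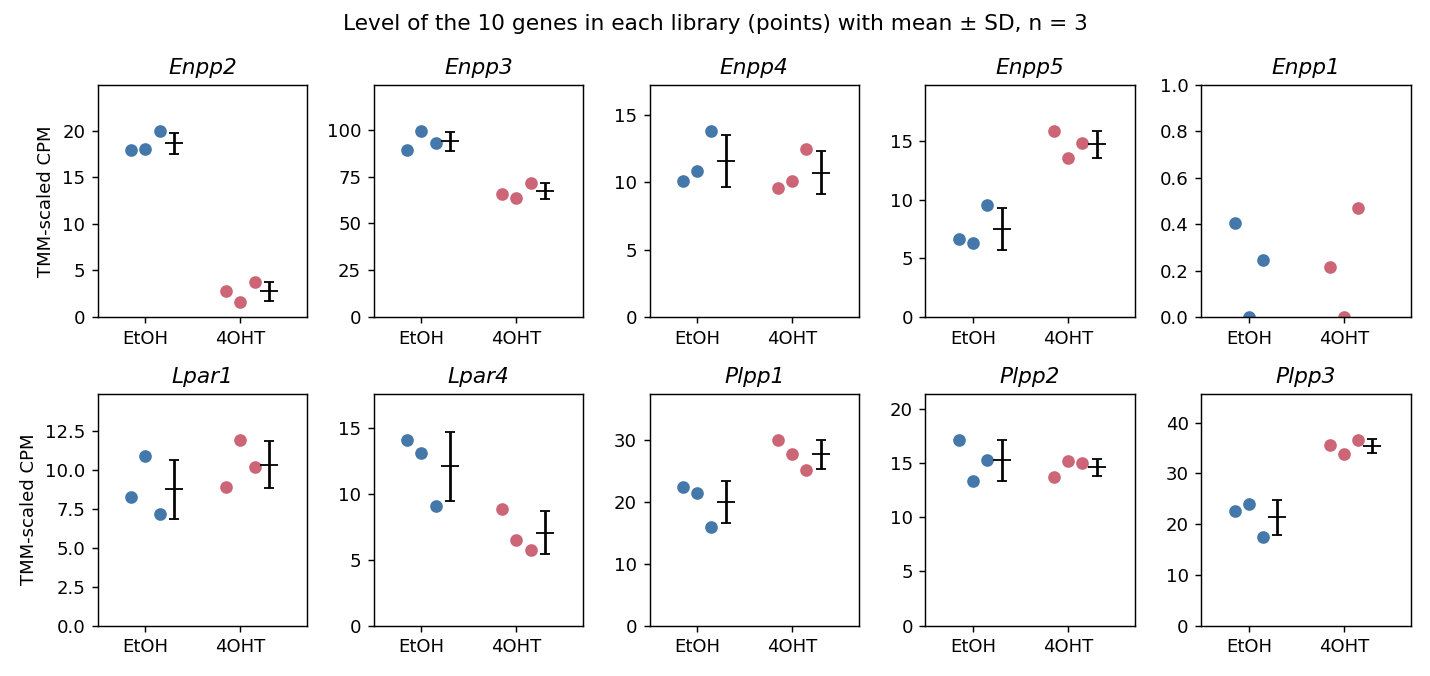
Level of the 10 genes in each library, in TMM-scaled CPM on a linear axis that starts at 0, with a scale of its own for every gene. Points are single libraries and black marks are the mean ± SD of 3 libraries (none drawn for Enpp1, whose libraries held at most 3 counts). Enpp2 lies between 17.9 and 19.9 CPM in EtOH and between 1.62 and 3.75 CPM in 4OHT.

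Enpp2 (Entrez Gene 18606; GRCm38, chromosome 15, 54838901 to 54952789) was counted 89, 80 and 81 times in the EtOH libraries and 13, 9 and 24 times in the 4OHT libraries. This is 17.9, 18.1 and 19.9 CPM against 2.82, 1.62 and 3.75 CPM. Every EtOH library was well above every 4OHT library, and the 4OHT libraries differed among themselves more, in proportion, than the EtOH libraries did. The fitted log2 fold change was −2.73 (SE 0.21), 6.65-fold lower in 4OHT, and 0.0405% of tested genes, Enpp2 among them, had a log2 fold change as low or lower. Enpp2 was chosen for its fall in this comparison, so that share is a description and not a test. The low counts limit its precision. The SE was taken as the absolute log2 fold change over the square root of edgeR's F statistic. It is not a direct measure of the spread between libraries, whose SD within groups was 0.38 in log2 CPM (prior count 2). The SE of Enpp2 was larger with limma-voom (0.26) and DESeq2 (0.29). DESeq2 also gave a larger SE than edgeR for every other tested member, including Enpp3 (0.09 against 0.07) and Plpp3 (0.15 against 0.11). An exact Poisson 95% interval around the 9 counts of 4OHT replicate 2 runs from 4.12 to 17.1 and around the 24 of replicate 3 from 15.4 to 35.7, and such intervals cover counting error only. Without 4OHT replicate 3 the log2 fold change was −3.08, and without 4OHT replicate 2 it was −2.46. The transcript was still present in 4OHT, with all 3 libraries above the level of 3 counts.

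Of the exon bases of Enpp2, 5.97% also lie in a gene model on the opposite strand in GENCODE vM21. The libraries came from a stranded kit, but the strand setting of the counting is not given in the sources used here, so reads of such shared bases may not have been told apart. In bulk RNA, fewer cells with a transcript and less transcript per cell cannot be told apart, which holds for every gene below.

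Enpp3 (chromosome 10, 24773814 to 24836195), a nucleotide-cleaving ectoenzyme of the cell surface, was the most abundant of the 10 genes per base of transcript in both groups. It was at 89.0, 99.2 and 93.2 CPM in EtOH and at 66.0, 63.8 and 71.9 CPM in 4OHT. The groups were apart by more than their spread (93.8 ± 5.14 and 67.2 ± 4.15 CPM, SD, n = 3 each), and the gene was 1.39-fold lower in 4OHT (log2 fold change −0.47, SE 0.07). It lies 61654 bases from Enpp1, with no other RefSeq gene between them. Enpp1, which makes the mineralization inhibitor pyrophosphate from ATP, was counted 2, 0 and 1 times in the EtOH libraries and 1, 0 and 3 times in the 4OHT libraries. All 6 libraries were at or under 3 counts, so no fold is given, and a difference was not detectable at this depth.

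Enpp5 and Enpp4 are another pair of neighbours, on chromosome 17 (44078802 to 44086567 and 44096307 to 44105809), 9739 bases apart with no RefSeq gene between. Enpp5, a membrane member of the family whose substrates are less well described, was counted 33, 28 and 39 times in EtOH against 73, 75 and 95 times in 4OHT. Its EtOH libraries were at 6.65, 6.33 and 9.60 CPM and its 4OHT libraries at 15.8, 13.5 and 14.8 CPM. No values overlapped, and the gene was 1.97-fold higher in 4OHT (log2 fold change 0.98, SE 0.18). Enpp4, which cleaves dinucleotides such as those released by platelets, was at 10.1, 10.9 and 13.8 CPM in EtOH and at 9.55, 10.1 and 12.5 CPM in 4OHT. Its groups overlapped (log2 fold change −0.08, SE 0.18). In both neighbour pairs the members thus had different values: a low-count gene beside an abundant one on chromosome 10, and a higher gene beside one with overlapping groups on chromosome 17. Enpp6 and Enpp7, choline-phosphodiesterase members of the family, had no count in any library. The floor used for a count of 0 is 3 counts in a library, about the one-sided 95% Poisson limit, where the 2-sided interval used for Enpp2 would reach 3.69.

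TPM values, which are scaled to gene length and then to the same total in each library, allow levels to be compared between genes. In EtOH, Enpp2 made up 12.6%, 11.7% and 12.8% of the summed TPM of the ENPP family. In 4OHT its share was 2.54%, 1.56% and 3.12%. Enpp5 moved from 6.65% ± 1.42 to 17.6% ± 1.31 of the family sum (SD, n = 3 each), so that the order of these 2 genes was swapped: Enpp2 was above Enpp5 in each EtOH library and below it in each 4OHT library. Enpp3 held 75.1% ± 2.70 in EtOH and 72.6% ± 1.13 in 4OHT, and these shares overlapped. The family sum was 99.6 ± 5.77 TPM in EtOH and 75.2 ± 6.16 TPM in 4OHT, a sum dominated by Enpp3.

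**Figure D2:**
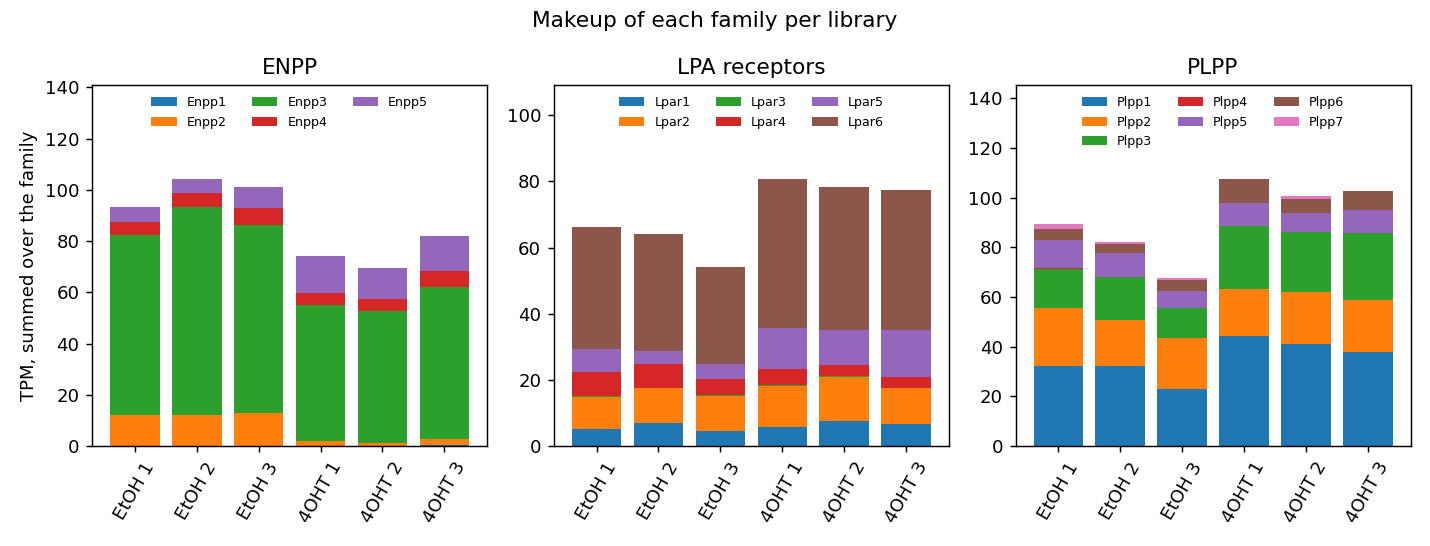
Summed TPM of the ENPP, LPA receptor and PLPP families in each library, on linear axes from 0, with the share of each gene as a coloured segment (genes with no count are left out). Enpp2 shrinks from between 11.7% and 12.8% of the ENPP sum in EtOH to between 1.56% and 3.12% in 4OHT, Lpar6 stays the largest receptor segment in all 6 libraries, and the PLPP bars are taller in 4OHT.

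Lpar4 (chromosome X, 106920625 to 106933899), a purinergic-like receptor known to couple to G12/13 and Gs proteins, was counted 70, 58 and 37 times in EtOH against 41, 36 and 37 times in 4OHT. Scaled to library size this was 14.1, 13.1 and 9.10 CPM against 8.90, 6.49 and 5.78 CPM. EtOH replicate 3 was low within its group and lay just above 4OHT replicate 1. In TPM these 2 libraries changed places (4.74 and 4.76), so the groups were apart in CPM and touched in TPM. The log2 fold change was −0.82 (SE 0.19), 1.77-fold lower in 4OHT, and ranged from −0.996 to −0.68 when single libraries were left out. Lpar1 (chromosome 4, 58435252 to 58554027), the most widely expressed LPA receptor across tissues, was at 8.26, 10.9 and 7.13 CPM in EtOH and at 8.90, 11.9 and 10.2 CPM in 4OHT. Its groups overlapped (log2 fold change 0.24, SE 0.19).

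The remaining receptors belong to the list of other pathway genes, and all but Lpar3 were tested. That list, like the one of pyrophosphate and nucleotide genes below, was drawn up with earlier results of these data known. The p-values of listed genes are those of the test over all genes and cannot be taken as independent of that choice. Lpar6, known in humans for its role in hair growth, was the most abundant receptor per length, at 54.9% ± 0.845 of the receptor TPM in EtOH and 55.2% ± 0.733 in 4OHT (SD, n = 3 each). Its level was 37.1 ± 4.12 CPM in EtOH and 47.0 ± 2.08 CPM in 4OHT, a log2 fold change of 0.33 (edgeR adjusted p = 0.0016). Lpar5 was counted 23, 12 and 13 times in EtOH against 38, 39 and 60 times in 4OHT, and rose 2.31-fold (log2 fold change 1.21, SE 0.25, edgeR adjusted p = 1.6e-05). Lpar2 was not called, with 26.0 ± 1.28 CPM in EtOH, 30.6 ± 3.42 CPM in 4OHT and a log2 fold change of 0.23 (edgeR adjusted p = 0.081; SD, n = 3 each), and leaving out 4OHT replicate 3 brought it past the threshold (0.024). Lpar3 had 1 or 2 counts in each library and was not tested.

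The shares of Lpar4 and Lpar5 were apart between the groups. Lpar4 went from 10.4% ± 1.38 to 4.80% ± 0.961 of the receptor TPM, and Lpar5 from 8.44% ± 1.94 to 15.7% ± 2.53 (SD, n = 3 each). The shares of Lpar1, Lpar2 and Lpar6 overlapped. The sum over the 6 receptors was 61.5 ± 6.43 TPM in EtOH and 78.9 ± 1.75 TPM in 4OHT, and the lowest 4OHT library (77.6) was above the highest EtOH library (66.2).

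The 250 bases before the annotated start of Lpar4 (RefSeq, GRCm38.p6, chrX:106920375-106920624, plus strand) are shown as the upstream sequence of a gene that was lower in 4OHT, with CG dinucleotides in capitals:
Lpar4: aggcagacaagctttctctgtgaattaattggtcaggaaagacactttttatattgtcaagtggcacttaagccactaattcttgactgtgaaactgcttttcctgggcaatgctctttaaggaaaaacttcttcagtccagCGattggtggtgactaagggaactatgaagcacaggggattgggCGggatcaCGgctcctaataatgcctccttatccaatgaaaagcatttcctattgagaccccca

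It holds 3 CG dinucleotides, where the median over the same windows of all 32851 RefSeq promoter entries is 6.

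Plpp3 (chromosome 4, 105157347 to 105232767), a phosphatase that degrades extracellular LPA and is needed in early mouse development, was at 22.6, 24.0 and 17.5 CPM in EtOH and at 35.6, 33.9 and 36.6 CPM in 4OHT. All 4OHT libraries were above all EtOH libraries, with EtOH replicate 3 the lowest. The gene was 1.65-fold higher in 4OHT (log2 fold change 0.72, SE 0.11). Plpp1 (chromosome 13, 112800777 to 112867894), which likewise acts on LPA at the plasma membrane, was at 22.4, 21.5 and 16.0 CPM in EtOH and at 29.95, 27.8 and 25.1 CPM in 4OHT. Its groups did not overlap either, and it was 1.36-fold higher (log2 fold change 0.45, SE 0.12), or 0.32 on the log2 scale without EtOH replicate 3. Plpp1 shares 25.8% of its exon bases with Mtrex on the opposite strand. Mtrex, an RNA helicase gene, went the other way, from 257 ± 9.57 to 222 ± 8.22 CPM (SD, n = 3 each).

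Plpp2 (chromosome 10, 79526424 to 79533787), the third of these phosphatases, was at 17.1, 13.3 and 15.3 CPM in EtOH and at 13.7, 15.1 and 14.995 CPM in 4OHT, with overlapping groups (log2 fold change −0.06, SE 0.15). As a share of the summed TPM of the PLPP family, Plpp3 went from 19.0% ± 1.87 to 24.7% ± 1.27 and Plpp2 from 26.3% ± 3.84 to 19.6% ± 1.82 (SD, n = 3 each). Plpp1 was the largest share in both groups, at 36.5% ± 2.51 and 39.6% ± 2.27. The family sum was 79.7 ± 11.1 TPM in EtOH and 103.7 ± 3.55 TPM in 4OHT. Of the other family members, Plpp6, a phosphatase of isoprenoid diphosphates, rose 1.71-fold (5.48 ± 0.665 to 9.56 ± 2.36 CPM, edgeR adjusted p = 0.0017). Plpp5, at a log2 fold change of −0.13, did not pass the test (edgeR adjusted p = 0.71), and Plpp4 and Plpp7 were too low to be tested. Of the PLPP-related genes without known phosphatase activity, Plppr2 and Plppr3 were not called (log2 fold changes 0.08 and −0.18), and Plppr1, Plppr4 and Plppr5 were too low to be tested.

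The 250 bases before the start of Plpp3 (RefSeq, GRCm38.p6, chr4:105157097-105157346, plus strand) are shown beside those of Lpar4 because Plpp3 differed in the other direction, again with CG in capitals:
Plpp3: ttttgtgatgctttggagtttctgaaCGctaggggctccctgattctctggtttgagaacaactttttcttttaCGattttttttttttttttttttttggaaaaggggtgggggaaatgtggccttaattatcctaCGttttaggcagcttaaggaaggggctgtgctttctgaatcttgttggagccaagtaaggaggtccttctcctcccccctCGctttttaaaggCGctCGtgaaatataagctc

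It holds 6 CG dinucleotides, and the same stretch before Enpp3, a gene that was lower in 4OHT, holds 5. A link between CG number and direction was not tested, and only some of the members' promoters are shown. Over 300 bases (250 before to 50 after a start), Enpp3 held 5 CG, Lpar4 6 and Plpp3 11. Among genes with overlapping groups, Enpp4 held 41, Plpp2 17 and the entries of Lpar1 3, 14 and 37. Enpp1, at the limit of detection, held 22. RefSeq promoter windows (250 bases before to 50 after a start) were matched for 7 of the 10 genes, in 9 entries. They were searched on both strands for the E-box CACGTG, for TCACGTG and the longer CLEAR palindrome, which contain it and are bound by MiT/TFE factors, and for ATCAAAG, bound by LEF and TCF factors. None of the 9 windows held any of these motifs. Of all 32851 promoter windows, 7.15% held CACGTG, 3.77% TCACGTG, 0.326% the CLEAR palindrome and 3.73% ATCAAAG. Enpp2, Enpp5 and Plpp1 had no entry.

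**Figure D3:**
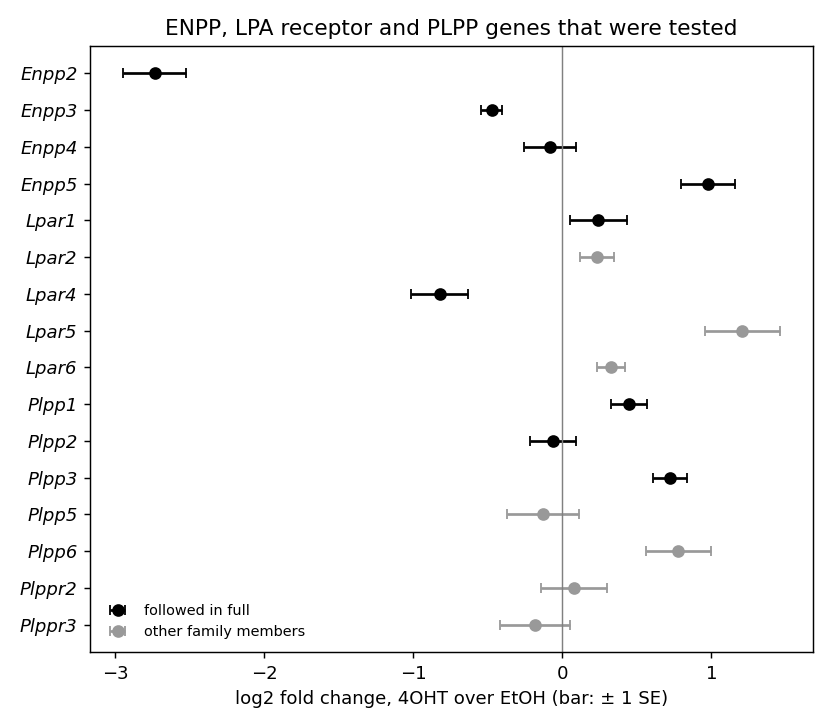
Log2 fold change, 4OHT over EtOH, of the ENPP, LPA receptor, PLPP and PLPP-related genes that passed the filter on low counts, with bars of 1 SE from edgeR's fit to 3 libraries a group. Black points are the members described in full and grey points the other family members. Enpp2 lies furthest from 0, at −2.73, and Lpar5 at 1.21 is the furthest on the other side.

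Ordered by TPM, Enpp3 was the highest of the 10 genes in EtOH (74.8 ± 5.49 TPM), followed by Plpp1 (29.2 ± 5.37), Plpp2 (20.7 ± 2.29), Plpp3 (15.2 ± 2.68) and Enpp2 (12.3 ± 0.6003; SD, n = 3 each). Below them were Enpp5, Lpar4, Enpp4 and Lpar1, at means between 5.59 and 6.63 TPM, and Enpp1 at 0.149 TPM. Plpp1 overlapped Plpp2, Plpp3 overlapped Enpp2, and each neighbour in the run from Enpp5 to Lpar1 overlapped the next. In 4OHT the order was Enpp3 (54.6 ± 3.99 TPM), Plpp1 (41.1 ± 3.16), Plpp3 (25.5 ± 1.21), Plpp2 (20.3 ± 1.24), Enpp5 (13.3 ± 1.06), Lpar1, Enpp4, Lpar4, Enpp2 (1.84 ± 0.736) and Enpp1 (SD, n = 3 each). There Lpar1 overlapped Enpp4 and Enpp4 overlapped Lpar4, and the other neighbours were apart. Enpp2 therefore stood at rank 5 in EtOH and at rank 9 in 4OHT.

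Other genes of LPA metabolism and signalling were called in both directions. The list holds lipid enzymes, the remaining receptors, ENPP and PLPP genes, the PLPP-related genes and the export pump gene Abcc1, and Lpar5, Lpar6 and Plpp6, described above, are among those that rose. Of 50 listed genes outside the set, 39 were tested, and 10 rose and 5 fell by edgeR's test. That is 38.5% called beside 42.0% of all tested genes, with a median log2 fold change of 0.10 beside 0.00 for all. With upper quartile factors the split was 8 higher and 7 lower. Gpat3, an acyltransferase that makes LPA inside the cell on the way to glycerolipids, was 3.72-fold higher in 4OHT, at 13.7 ± 2.37 CPM against 3.80 ± 1.27 (edgeR adjusted p = 1.2e-14; SD, n = 3 each). Pla1a, a secreted phospholipase that yields lysophosphatidylserine, was counted 8, 4 and 8 times in EtOH against 30, 19 and 32 times in 4OHT and rose 3.26-fold (edgeR adjusted p = 2.1e-05). Agpat4, which turns LPA into phosphatidic acid, rose 1.44-fold (edgeR adjusted p = 1.4e-08).

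The 5 lower genes included Acp6, a phosphatase of LPA in mitochondria (78.2 ± 4.56 to 56.4 ± 4.39 CPM, 1.38-fold lower, edgeR adjusted p = 1.4e-08; SD, n = 3 each). Pla2g6, a calcium-independent phospholipase, was 1.48-fold lower (edgeR adjusted p = 1.1e-11). The others (chosen for naming after their values were seen) were the acyltransferase gene Lpcat4 (log2 fold change −0.47), the export pump gene Abcc1 (−0.26) and Agpat5 (−0.21). Abcc1 was not called without EtOH replicate 2 (edgeR adjusted p = 0.080) or 4OHT replicate 2 (0.055). Agpat5 was not called without EtOH replicate 1 or 3 or 4OHT replicate 2 or 3 (edgeR adjusted p between 0.052 and 0.38), nor with DESeq2 (0.18) or without a filter on low counts (0.058).

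**Figure D4:**
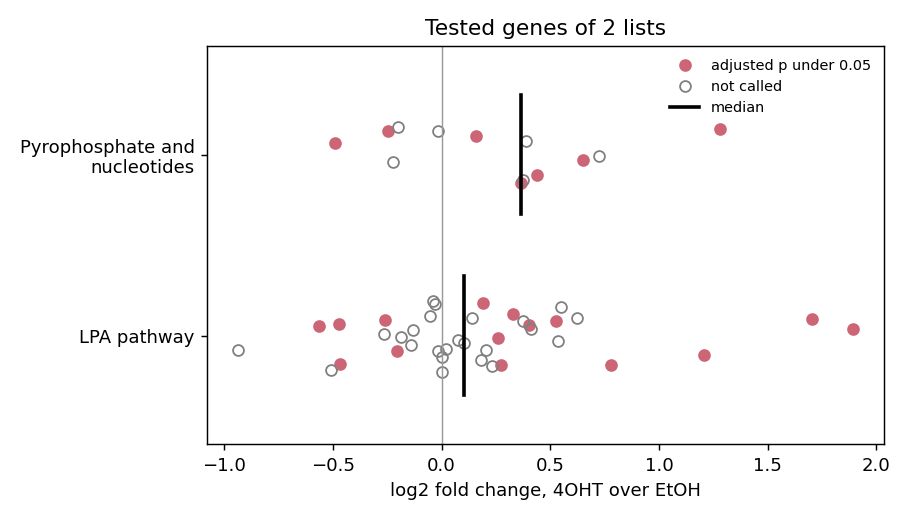
Log2 fold change, 4OHT over EtOH, of every tested gene in 2 lists: other genes of LPA metabolism and signalling, and genes of pyrophosphate and extracellular nucleotides. Filled points have an edgeR adjusted p under 0.05, open points do not, vertical bars are list medians (0.10 and 0.36), and the vertical scatter within a list has no meaning.

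Extracellular nucleotides and pyrophosphate are the other substrates and products of the ENPP family. Of 22 listed genes, 13 were tested, 5 rose and 2 fell (53.8% called beside 42.0% of all, median log2 fold change 0.36). The phosphate importer genes Slc20a1 (331 ± 7.76 to 520.3 ± 7.31 CPM) and Slc20a2 rose 1.57-fold and 1.12-fold (edgeR adjusted p = 2.5e-42 and 0.030; SD, n = 3 each). Slc20a2 was not called without EtOH replicate 3 (edgeR adjusted p = 0.26) or 4OHT replicate 3 (0.18), nor with upper quartile factors (0.093) or DESeq2 (0.16). The nucleoside transporter gene Slc29a1 rose 1.29-fold, and the ATP-gated channel gene P2rx4 rose 2.43-fold (6.39 ± 1.76 to 15.4 ± 1.37 CPM; edgeR adjusted p = 7.7e-13 and 6.5e-10). Ank, which exports ATP and pyrophosphate, rose 1.36-fold (edgeR adjusted p = 0.012, but 0.084 without EtOH replicate 2 and 0.081 with DESeq2). Nt5e, which makes adenosine from AMP, was 1.41-fold lower (edgeR adjusted p = 0.0030). Entpd6, named after its values were seen, had a log2 fold change of −0.25 and was not called without EtOH replicate 1, EtOH replicate 3 or 4OHT replicate 3 (edgeR adjusted p = 0.061, 0.19 and 0.26), nor with DESeq2 (0.15) or without a filter (0.057).

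The genes whose pattern over the 6 libraries was nearest to that of Enpp2 were found by the root mean square difference of log2 CPM after centring each gene, among 11293 genes outside the set with an average of at least 2 log2 CPM. The nearest was Zic2, a zinc finger transcription factor gene (distance 0.33; 25.9 ± 0.108 CPM in EtOH and 5.47 ± 0.943 in 4OHT, SD, n = 3 each). It was followed by Vrtn (0.40), the cytokine gene Tnfsf11 (0.42), Jph4, a junctophilin (0.47), the growth factor gene Fgf15 (0.47) and Zfp608 (0.48). The formin gene Fhod3 (0.51) and Lefty2, an inhibitor of Nodal (0.51), came last of the 8. All 8 were lower in 4OHT, with log2 fold changes between −3.02 and −1.75, as a gene near to Enpp2 in this measure has to be. The likeness rests mainly on the difference between the groups.

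**Figure D5:**
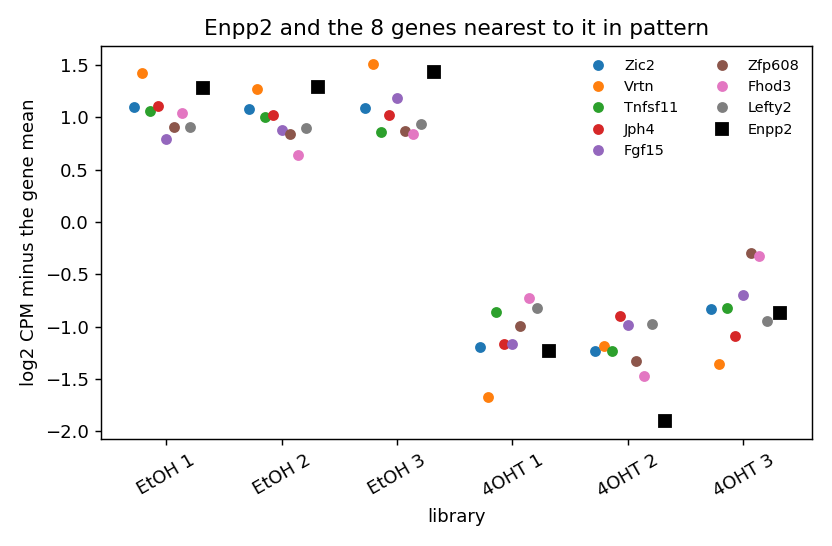
Log2 CPM (prior count 2) minus the gene's mean over the 6 libraries, for Enpp2 (black squares) and the 8 genes nearest to it (coloured points), offset sideways within each library so that they can be told apart. All 9 genes are above 0 in the 3 EtOH libraries and below 0 in the 3 4OHT libraries, and Enpp2 is lowest in 4OHT replicate 2.

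Markers of other cell types were read beside these values because several of the genes are expressed outside pluripotent cells. Of 12 markers of primitive and visceral endoderm, 4 were tested and none was called by edgeR, DESeq2 or limma-voom (1, 0 and 0 at an unadjusted p under 0.05). They summed to between 18.0 and 27.0 CPM in EtOH and between 27.6 and 31.4 CPM in 4OHT, with Afp and Ttr at 0 counts in all 6 libraries. Of 9 trophectoderm markers, 6 were tested and all 6 rose by edgeR (5 by DESeq2), and the sum went from between 458 and 482 CPM to between 983 and 1018 CPM. Krt8 and Krt18 made up most of that sum. Of the transcription factor genes in the list, Eomes (4.97 to 13.1 CPM), Hand1 (1.54 to 8.96 CPM) and Tfap2c (64.8 to 75.4 CPM) rose, while Cdx2 (2.25 and 1.54 CPM) and Elf5 (1 count over all 6 libraries) were too low to be tested. Of 6 neural markers, 4 were tested and 2 fell, Nes and Tubb3. The sums were between 159 and 174 CPM in EtOH and between 94.0 and 104 CPM in 4OHT. Nes (103 to 56.0 CPM) and Tubb3 (54.5 to 33.7 CPM) made up most of that sum. Sox1 (4.52 and 6.29 CPM) and Pax6 (3.27 and 2.65 CPM) were tested and not called. Of 7 markers of mesoderm and endothelium, 4 were tested, 2 rose (Kdr and Pecam1) and 1 fell (T), with sums between 71.8 and 81.8 CPM and between 94.5 and 101 CPM. Pecam1 (54.9 to 79.3 CPM) made up most of that sum, beside Kdr (0.597 to 2.68 CPM) and T (4.67 to 0.509 CPM). Of 7 fibroblast markers, 3 were tested and none was called by the same tools (1, 0 and 1 at an unadjusted p under 0.05), and they summed to between 15.1 and 23.1 CPM in EtOH and between 19.3 and 24.99 CPM in 4OHT. The part of these cell types in the levels of the 10 genes was not tested.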

How the data were processed

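Total RNA of 3 EtOH and 3 4OHT samples went into a stranded mRNA library kit, per the labels' protocols. The authors deposited 1 table of raw counts with each gene's length in bases. Per the submitters' processing notes the tools were fastp, STAR and featureCounts and the build mm10. Their versions, the annotation, the strand setting and the handling of multiply matching reads were not given in the sources used here. Genes without a symbol (1314, between 0.411% and 0.478% of counts) stayed in the tests.

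Genes were kept by filterByExpr (minimum count 10, total 15), which left 12345, scaled with TMM factors and compared with edgeR 4.0.16 in R 4.3.3 (robust quasi-likelihood fit, Benjamini-Hochberg over all tested genes, threshold 0.05). The SE was taken as log2 fold change (absolute) over the square root of F. CPM use TMM-scaled totals, and TPM use the deposited lengths. Positions, promoters and neighbours are from RefSeq on GRCm38 (mm10), and exon overlaps from GENCODE vM21. The fit was also run on simulated counts with the same spread setting for all genes and few changed genes. That setting is unlike these data, so nothing is read from it here.

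The members and lists were chosen with earlier results of these data known. Named were the 10 members, Tfe3, up to 6 called genes of smallest p from each of 2 lists, every listed LPA receptor, ENPP and PLPP gene, the 8 genes nearest to Enpp2, and cell type markers. Alternatives were upper quartile factors, DESeq2's size factors, no filter, 1 CPM in 3 libraries, the replicate block, leaving out each library, DESeq2 1.42.0, limma-voom (limma 3.58.1), a threshold of 0.01, RPKM in place of TPM, and a prior count of 0.5. A planned comparison of protein sequences was not run, and 1 planned gene list is not reported here.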

Additional observations from a re-analysis of the deposited data

How the results depend on the processing

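The log2 fold change of Enpp2 was between −3.08 and −2.46 over 13 alternatives (−2.75 with the replicate block), and those of Enpp3, Enpp5, Lpar4, Plpp1 and Plpp3 kept their direction in all 13. Enpp4 and Plpp2 changed sign in 1 alternative each (0.05 and 0.04, each with 1 library left out), and Lpar1 stayed between 0.13 and 0.42. Of the genes of LPA metabolism and signalling, 8 were higher and 7 lower with upper quartile factors and 7 higher and 4 lower with DESeq2, against 10 and 5. Without single libraries, the lower ones numbered 3 to 5 (3 without 4OHT replicate 2). Of the pyrophosphate and nucleotide genes, 3 were higher with DESeq2 or a threshold of 0.01, and 1 was lower with DESeq2, a threshold of 0.01 or no filter, and 1 to 2 without single libraries; the cause was not tested. The replicate block called 2585 genes higher and 2497 lower, and same-numbered libraries did not deviate together (correlations −0.02, −0.02 and −0.02), so the numbers were not used as pairs. Of the called genes of LPA metabolism and signalling, Ddhd1 lost its call in 9 of 13 alternatives (adjusted p between 0.051, with the block, and 0.35), Agpat1 in 8, Agpat5 in 6, Abcc1 in 2 and Lpcat3 in 1, with Ddhd1, Agpat1 and Lpcat3 picked out after seeing their values. Over all genes, DESeq2 called 1926 higher and 1761 lower, and upper quartile factors 2319 and 2958. RPKM gave the same order of the 10 genes. Within a library it has to, because RPKM uses the same counts and lengths as TPM, so nothing is read from this. A prior count of 0.5 kept 7 of the 8 genes nearest to Enpp2. Counts under 100 in all 6 libraries limit the precision for Enpp1, Enpp2, Enpp4, Enpp5, Lpar1, Lpar4 and Plpp2, and counts under 100 in some EtOH libraries for Plpp1 and Plpp3.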
